A study of Mus musculus with 6 samples.

Results

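The genes described here are 33 genes of glucose breakdown and of the response to low oxygen, measured in mouse cells exposed to an inhibitor of histone deacetylases. They were listed by symbol and found on the arrays through the RefSeq accession of each probe. All 33 were found, with 51 probes, among 18749 named genes. The list holds 2 glucose transporters, 13 enzymes of glycolysis, 3 genes that act on the fate of pyruvate, 3 genes of oxygen sensing and 12 genes induced in hypoxia. The samples were cells of strain 129/Ola mouse embryonic stem cells that had been plated on gelatin and differentiated in N2B27, a serum-free medium, and are labelled as day 3 cells. In 3 independent experiments, each group had 3 samples: the control group received the solvent DMSO for 24 h, and the other received trichostatin A (TSA), which blocks class I and II histone deacetylases, for 24 h. The labels state no TSA dose, oxygen tension or clone. Total RNA of each sample was labelled with Cy3 and hybridised to 1 Agilent array.

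In glycolysis, glucose enters the cell through transporters, is trapped by hexokinase and is split and oxidised to pyruvate, which becomes lactate or enters mitochondria. When oxygen is short, prolyl hydroxylases stop marking HIF1A for destruction, and the stabilised factor induces most glycolytic genes together with genes for blood vessel growth, acid export and mitophagy. HIF1A is regulated mainly as a protein, which an array does not measure. Pluripotent cells are known for a high glycolytic rate that shifts as they differentiate, and deacetylases take part in transcription driven by HIF1A.

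None of the 33 genes differed between TSA and DMSO past an adjusted p of 0.05 (limma, Benjamini-Hochberg over all probes). Among all 14527 tested genes, 1.36% rose and 0.0551% fell. Without adjustment, 6 of 33 members had a p under 0.05 (limma). Of these, 3 were higher in TSA (Hk1, Pfkp and Mxi1) and 3 lower (Vegfa, Bnip3 and Kdm3a). Of all 14527 tested genes, 1763 were higher and 404 lower at that p. Of the 33 members, 20 had a lower mean in TSA (60.6%, against 41.9% of all tested genes), and their median difference was -0.15 on the log2 scale against 0.08 over all tested genes. That direction turned when 1 array was left out: without TSA replicate 1, 13 of 33 were lower and the median was 0.08. The median over all tested genes was 0.16 in that fit. By slide, the members' medians were -0.42, 0.29 and -0.27 on slides 1, 2 and 3. Those of all tested genes were -0.03, 0.30 and 0.03. Levels are given throughout as log2 signal minus the 75th percentile of the same array. Differences are TSA minus DMSO ± the standard error that limma gave for 3 arrays a group, without pairing by slide. The smallest adjusted p among the members was 0.155, for Pfkp.

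Behind this absence of calls lay several members whose arrays separated by treatment. The 3 TSA arrays lay below the 3 DMSO arrays for 4 members, Vegfa, Bnip3, Kdm3a and Hk2, and above them for 3, Hk1, Pfkp and Mxi1. These are 12.1% and 9.09% of the members, and over all tested genes the shares were 8.28% and 16.4%, which puts the members near the background. The 95% interval of the difference stayed within 1 log2 unit of 0 for 11 members and reached past it for the other 22. In that fit, a difference of that size could not be set aside for those 22. These intervals ignore the pairing of samples by slide. With the slide as a block the standard error was 0.18 against 0.47 for Ndrg1, and 0.17 against 0.18 for Hk2.

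**Figure D1:**
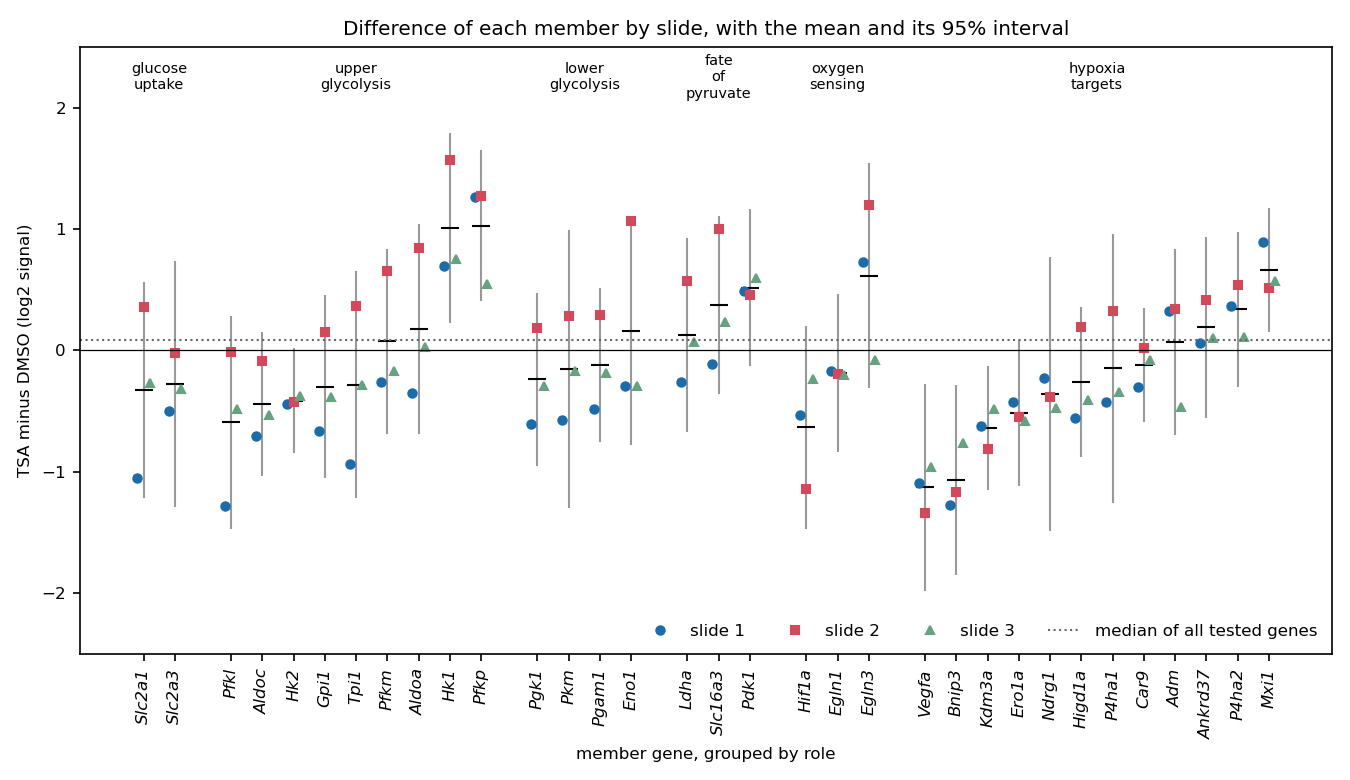
Difference between TSA and DMSO (log2 signal, vertical axis) for each of the 33 members, grouped by role on the horizontal axis. Coloured points are slides 1, 2 and 3, black ticks are means over the slides, grey lines are 95% intervals from limma, and the dotted line is the median of all tested genes (0.08). Hypoxia targets run from -1.13 for Vegfa to 0.66 for Mxi1, and the slide 2 point lies above those of slides 1 and 3 for most glycolytic enzymes.

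The arrays themselves differed in ways that touch these genes. The 75th percentile of the signal was 310.6 intensity units on TSA replicate 2 and 632.1 to 926.3 on the other arrays, and no spot was saturated. Control RNAs added to the samples stood 3.32 log2 units above the 75th percentile on TSA replicate 2 and 1.25 to 1.90 above it elsewhere. Each slide held the DMSO and the TSA sample of 1 experiment, always at positions 3 and 4, so treatment cannot be told apart from position on the slide. All 5 pluripotency markers and all 5 early neural markers were above background on every array, but so were 4 of 4 fibroblast, 4 of 5 primitive streak and mesoderm and 3 of 4 endoderm markers, so detection does not single out the labelled cell type. Of the blood markers, Hbb-bh1 was above background on no array, Ptprc on 1 DMSO array, and Gata1 on 2 DMSO and 3 TSA arrays, with TSA higher by 1.57 ± 0.40 (adjusted p = 0.158 with limma, and 0.0363 with the block). All 5 primitive streak and mesoderm markers had a higher mean in TSA; none passed without the block and 3 passed with it. Their summed level ranged from 1.76 to 3.44 on DMSO arrays and from 3.23 to 5.37 on TSA arrays. Fibroblast markers summed to 2.37 to 2.99 in DMSO and 3.36 to 3.86 in TSA (3 of 4 with a higher mean), and early neural markers to 3.33 to 3.54 and 3.02 to 3.15 (1 of 5 with a higher mean). Endoderm markers summed to 0.63 to 4.01 in DMSO and 0.38 to 3.82 in TSA. Pluripotency markers summed to 4.33 to 5.39 in DMSO and 4.29 to 4.89 in TSA. Of these, 4 of 5 had a higher mean in TSA, and Pou5f1, the brightest, had a lower one (-0.50). Such sums follow the brightest genes of a list most. Cell makeup was not measured, and the part of these marker differences in the members' values was not tested. In bulk RNA, fewer cells of a type and less RNA per cell cannot be told apart.

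What most members share beyond the list is a hypoxia response core in the promoter. The DNA-binding core of HIF was searched as ACGTG and GCGTG on both strands in the 250 bases before the most upstream start of each gene, in RefSeq promoter sequences of build GRCm38.p6. ACGTG preceded by C is also the E-box core CACGTG, and overlapping matches were counted as 1 site. Of 31 members with a sequence, 24 held at least 1 site (77.4%), against 38.6% of 27025 genes, and 16 held ACGTG (51.6%, against 16.5%). Member promoters were also richer in G and C, with a median of 62.8% against 52.0%, and the core holds a CG. A match is not a bound site, and binding was not measured here. The 16 members with ACGTG had a median difference of -0.14 and the 15 without it -0.15, a gap far smaller than the spread of the members. Slc2a3 and Ndrg1 were not in the promoter table. The promoters of Bnip3 and Hk2, lower in TSA without overlap, and of Ldha and Pgk1, which overlapped between the groups, are printed 5′ to 3′ in the gene's direction, ending at the base before the start, with sites in capitals:

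Bnip3, chr7:138909507-138909756, strand -: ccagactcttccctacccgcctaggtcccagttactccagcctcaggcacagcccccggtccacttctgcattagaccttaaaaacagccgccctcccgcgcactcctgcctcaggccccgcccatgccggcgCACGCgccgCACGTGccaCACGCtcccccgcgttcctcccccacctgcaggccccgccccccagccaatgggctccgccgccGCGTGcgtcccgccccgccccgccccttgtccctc
Hk2, chr6:82774455-82774704, strand -: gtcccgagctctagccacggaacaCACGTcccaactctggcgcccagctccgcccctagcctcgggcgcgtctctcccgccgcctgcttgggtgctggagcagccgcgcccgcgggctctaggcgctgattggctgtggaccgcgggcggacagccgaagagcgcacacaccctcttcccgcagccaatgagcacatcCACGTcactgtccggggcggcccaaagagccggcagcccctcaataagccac
Ldha, chr7:46845554-46845803, strand +: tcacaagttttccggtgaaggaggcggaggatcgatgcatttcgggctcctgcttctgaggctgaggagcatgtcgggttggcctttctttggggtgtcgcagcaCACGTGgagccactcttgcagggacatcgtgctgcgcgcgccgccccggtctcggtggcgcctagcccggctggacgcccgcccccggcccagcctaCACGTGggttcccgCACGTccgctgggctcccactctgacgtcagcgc
Pgk1, chrX:106186850-106187099, strand +: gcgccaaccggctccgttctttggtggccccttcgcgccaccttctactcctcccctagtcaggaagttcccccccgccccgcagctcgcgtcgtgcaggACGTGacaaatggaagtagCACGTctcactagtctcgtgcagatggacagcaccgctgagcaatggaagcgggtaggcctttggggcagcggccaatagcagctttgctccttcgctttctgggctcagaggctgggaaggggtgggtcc

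Bnip3 had the most sites of any member, 4, and Ldha had 3, Hk2 2 and Pgk1 2. The same core stood before genes with separated arrays and before genes without, and its part in the differences was not tested. In Vegfa no match fell in this window.

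Among hypoxia targets, Vegfa, the vascular endothelial growth factor, had the largest difference. Its level was 0.98, 0.96 and 1.65 on DMSO arrays 1, 2 and 3 and -0.11, -0.38 and 0.70 on the TSA arrays. Every TSA array lay below every DMSO array, and the gap within a slide was similar in the 3 experiments, at -1.09, -1.34 and -0.96. The difference was -1.13 ± 0.36 (2.19-fold higher in DMSO, adjusted p = 0.254 with limma, and 0.0575 with the slide as a block). All 4 Vegfa probes were lower in TSA, by -0.56 to -1.13.

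Bnip3, which encodes a mitochondrial protein that triggers mitophagy, followed the same course. Its level was 3.65, 3.57 and 4.10 on the DMSO arrays and 2.37, 2.41 and 3.33 on the TSA arrays. The third experiment was highest in both treatments, as it was for Vegfa. The difference was -1.07 ± 0.33 (2.10-fold higher in DMSO, adjusted p = 0.239 with limma, and 0.0683 with the block).

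Kdm3a, a histone demethylase gene induced by hypoxia, stood at 2.29, 2.35 and 2.49 in DMSO and at 1.67, 1.54 and 2.01 in TSA. The groups did not overlap, and the difference was -0.64 ± 0.21 (adjusted p = 0.285 with limma). Its other probe gave -0.54. Ero1a, an oxidase of protein folding in the endoplasmic reticulum, was lower in TSA on all 3 slides, by -0.43, -0.55 and -0.58, while its groups overlapped (-0.52 ± 0.25, adjusted p = 0.506 with limma). Ndrg1, a stress-induced gene linked to differentiation, was also lower on every slide, by -0.23 to -0.47, but its DMSO arrays ranged from 0.32 to 1.77 (-0.36 ± 0.47).

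The other targets ranged from -0.26 for Higd1a to 0.66 for Mxi1, by the probe used for each gene. Mxi1, a gene for an antagonist of MYC, was -0.73, -0.27 and -0.57 in DMSO and 0.16, 0.25 and 0.00 in TSA. All TSA arrays were higher, and the difference was 0.66 ± 0.21 (1.58-fold, adjusted p = 0.271 with limma). Of the collagen prolyl hydroxylase genes, P4ha2 was higher in TSA on all 3 slides (0.34 ± 0.27), whereas P4ha1 was lower on slides 1 and 3 and higher on slide 2 (-0.15 ± 0.46). Car9, the carbonic anhydrase widely used as a hypoxia marker, had the smallest standard error of the 12 targets, with levels of -2.70 to -2.60 in DMSO and -2.96 to -2.58 in TSA (-0.12 ± 0.20, with a 95% interval of -0.59 to 0.35). Adm, for the vasodilator peptide adrenomedullin, gave 0.07 ± 0.32 (below 0 with median centring, -0.02, and in the authors' table), and Ankrd37, an ankyrin repeat gene, gave 0.19 ± 0.31. Higd1a, a mitochondrial survival gene, gave -0.26 ± 0.26 with 1 probe and -0.27 with the other.

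**Figure D2:**
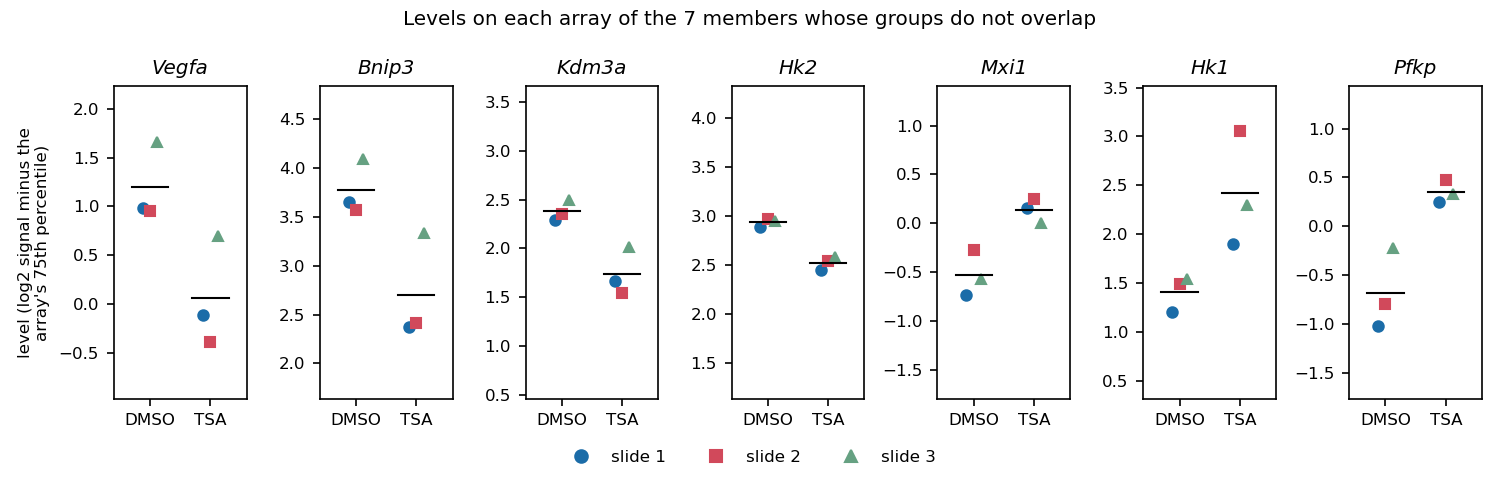
Level on each of the 6 arrays (log2 signal minus the array's 75th percentile, vertical axis) for the 7 members whose DMSO and TSA arrays do not overlap. Points are arrays marked by slide, and black bars are means of 3 arrays. All panels span the same number of log2 units, each centred on its own gene. The steps within Hk2 are small (means 2.94 and 2.52) and tight, whereas Hk1 spreads from 1.90 to 3.06 in TSA.

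Oxygen sensing genes did not move together. Hif1a, the oxygen-regulated subunit of the factor, was at 2.06, 1.65 and 1.94 in DMSO and at 1.53, 0.51 and 1.70 in TSA. It was lower in TSA on all 3 slides, most on slide 2 (-1.14, against -0.53 and -0.23), with overlapping groups and a difference of -0.64 ± 0.35 (adjusted p = 0.560 with limma). Egln1, the main prolyl hydroxylase that marks HIF1A in normal oxygen, differed by -0.17, -0.19 and -0.20 on the 3 slides, an even but small gap. Its other probe gave 0.06, with -0.10, 0.47 and -0.21 on slides 1, 2 and 3. Egln3, a hydroxylase gene that is itself induced in hypoxia, was higher on slides 1 and 2 (0.73 and 1.20) and not on slide 3 (-0.08), with a mean of 0.62 ± 0.39.

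Hexokinase and phosphofructokinase, regulated early steps of glycolysis, are each encoded by several genes. Here the arrays of Hk1 and Pfkp lay above DMSO and those of Hk2 below it. Hk1, the constitutive hexokinase, was at 1.20, 1.49 and 1.54 in DMSO and at 1.90, 3.06 and 2.30 in TSA. All TSA arrays were higher, TSA replicate 2 most of all, and the difference was 1.01 ± 0.33 (2.01-fold, adjusted p = 0.271 with limma). Its 5 tested probes gave 0.91 to 1.32, and a sixth was above background on no array. Hk2, the hexokinase induced by hypoxia and insulin, was at 2.89, 2.97 and 2.95 in DMSO and at 2.45, 2.54 and 2.58 in TSA. Its gap was nearly the same in each experiment, at -0.44, -0.43 and -0.37, with a difference of -0.41 ± 0.18 (adjusted p = 0.450 with limma).

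Pfkp, the platelet-type phosphofructokinase, was at -1.02, -0.80 and -0.22 in DMSO and at 0.25, 0.47 and 0.33 in TSA. The difference was 1.03 ± 0.26 (2.04-fold, adjusted p = 0.155 with limma), but the other Pfkp probe gave only 0.33 ± 0.28. Pfkl, the liver type, was at 2.76, 2.89 and 2.58 in DMSO and at 1.48, 2.87 and 2.09 in TSA. It was lower on slides 1 and 3 and level on slide 2 (-0.01), with a mean difference of -0.59 ± 0.37. Pfkm, the muscle type, gave 0.07 ± 0.32, and -0.02 with median centring.

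Differences between 2 genes of the same array are free of any constant shift between arrays, though not of normalizations that act by intensity. Hk1 minus Hk2 was -1.52 ± 0.15 in DMSO and -0.10 ± 0.55 in TSA (SD, n = 3 each), a change of 1.42 with no overlap. The TSA arrays already lay above DMSO for Hk1 and below it for Hk2, so this separation was fixed in advance. Pfkp minus Pfkl changed by 1.62, from -3.42 ± 0.54 to -1.80 ± 0.58, also with no overlap. Of 6 pairs compared, the other 4 overlapped: Vegfa minus Pgk1 changed by -0.89, Bnip3 minus Pgk1 by -0.83, Pdk1 minus Ldha by 0.39 and Hk2 minus Pgk1 by -0.18 (exact two-sided permutation p = 0.2, 0.2, 0.6 and 0.7). The permutations took no account of the pairing by slide, and all 6 pairs were picked after their values were seen. For the separated pairs, the exact two-sided permutation p of 0.1 is the smallest that 3 arrays against 3 can give. It adds no support beyond the members' own values, from which these pairs were picked.

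The remaining enzymes of the pathway had no separation by treatment. Aldoa, the main aldolase, was at 8.94, 9.03 and 8.78 in DMSO and at 8.59, 9.88 and 8.81 in TSA (0.18 ± 0.36, and -0.04 to -0.05 with quantile normalization, normexp or the authors' table). Aldoc, the brain aldolase, was lower in TSA on all 3 slides, by -0.71, -0.09 and -0.53 (-0.44 ± 0.25, adjusted p = 0.566 with limma). Gpi1, which isomerises glucose 6-phosphate, gave -0.30 ± 0.32, and Tpi1, the triose phosphate isomerase, gave -0.29 ± 0.39. In the lower pathway Pgk1, the first enzyme to yield ATP, was at 6.76 to 7.02 in DMSO and at 6.16, 7.19 and 6.73 in TSA (-0.24 ± 0.30). Pgam1 gave -0.12 ± 0.27, Eno1, for enolase, 0.16 ± 0.39, and Pkm, for pyruvate kinase, -0.15 ± 0.48. TSA replicate 2 held the highest of the 6 values in each of Aldoa, Gpi1, Tpi1, Pgk1, Pgam1, Eno1 and Pkm.

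Both glucose uptake genes had a lower mean in TSA, with overlapping groups. Slc2a1, the GLUT1 transporter, was at 6.46, 6.51 and 6.38 in DMSO and at 5.41, 6.86 and 6.11 in TSA. The TSA arrays lay on both sides of the tightly grouped DMSO arrays, and the difference was -0.32 ± 0.37 (adjusted p = 0.742 with limma). Slc2a3, the high-affinity transporter GLUT3, gave -0.28 ± 0.42. Its values were lower in TSA on each slide, by -0.50, -0.02 and -0.32.

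All 3 genes of pyruvate fate had higher means in TSA, without a call. Pdk1, a kinase that inhibits pyruvate dehydrogenase, was at 1.44, 1.66 and 2.01 in DMSO and at 1.93, 2.12 and 2.61 in TSA. For the probe used, the slides agreed closely, at 0.49, 0.46 and 0.60, though the groups overlapped (0.52 ± 0.27, adjusted p = 0.536 with limma). The other Pdk1 probe gave 0.16, with 0.50, -0.38 and 0.35 on slides 1, 2 and 3. Ldha, the lactate dehydrogenase subunit, was at 7.81, 8.09 and 7.68 in DMSO and at 7.55, 8.66 and 7.74 in TSA (0.13 ± 0.33, and -0.03 and -0.10 with normexp or the authors' table), and its other probe gave -0.02. Slc16a3, the lactate exporter MCT4, gave 0.37 ± 0.31, from -0.11 on slide 1 to 1.00 on slide 2.

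**Figure D3:**
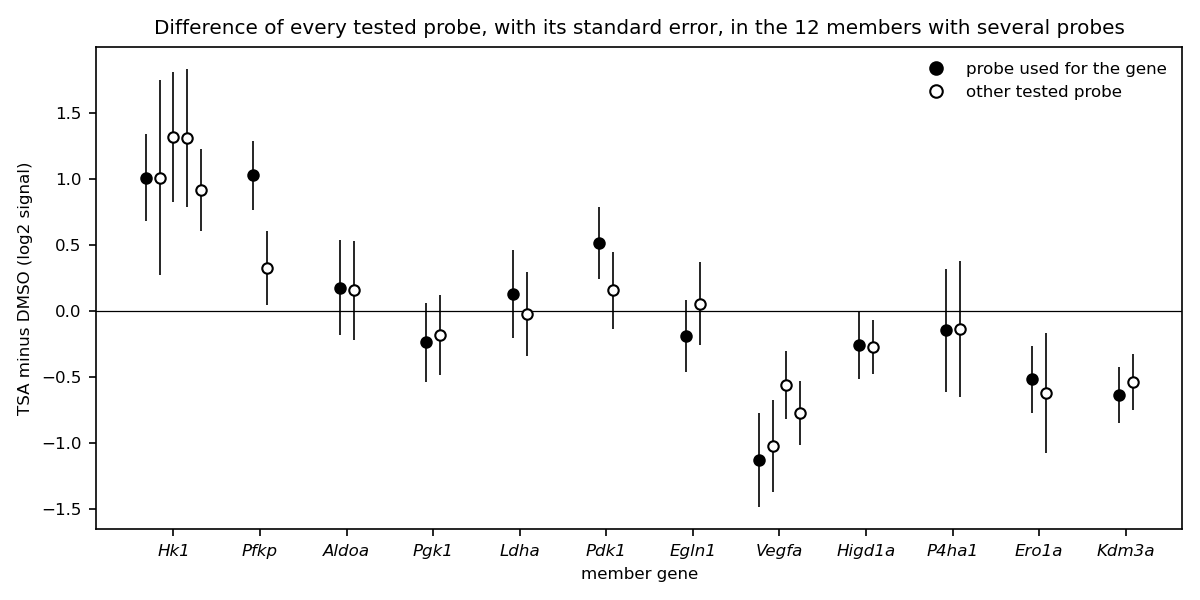
Difference between TSA and DMSO (log2 signal, vertical axis) for every tested probe of the 12 members with several probes. Filled points are the probes used for the gene, open points are the others, and bars are standard errors from limma with 3 arrays a group. All 5 Hk1 probes lie above 0 and all 4 Vegfa probes below it, and only Ldha and Egln1 have probes of opposite sign.

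The glycolytic enzymes differed in direction between experiments. Of 13 glycolytic enzyme members, 11 were lower in TSA on slide 1 and 10 on slide 3, while 10 were higher on slide 2. Median differences of these 13 were -0.48, 0.29 and -0.29 on slides 1, 2 and 3, and those of all tested genes were -0.03, 0.30 and 0.03. Relative to all genes, glycolysis was thus lower on slides 1 and 3 and level with them on slide 2. TSA replicate 2 exceeded the mean of the other TSA arrays by a median of 0.95 over these enzymes, against 0.37 over all tested genes, and DMSO replicate 2 exceeded the other DMSO arrays by 0.11, against 0.06. Glycolysis was not alone in this: the TSA deviation was 0.89 for glucose uptake, 0.94 for the fate of pyruvate and 1.04 for the pentose phosphate list. Primitive streak and endoderm markers deviated by 2.37 and 2.31 in TSA and by 2.13 and 2.17 in DMSO. Of the 13 glycolytic enzymes, 10 were among the 3632 tested genes of highest mean signal. Over those genes TSA replicate 2 deviated by a median of 0.49, and over the dimmest 3632 genes by 0.45. Between these in signal, it deviated by a median of 0.25 over the dimmer 3632 genes and 0.24 over the brighter 3631. The part of the low signal of that array in these values was not tested.

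**Figure D4:**
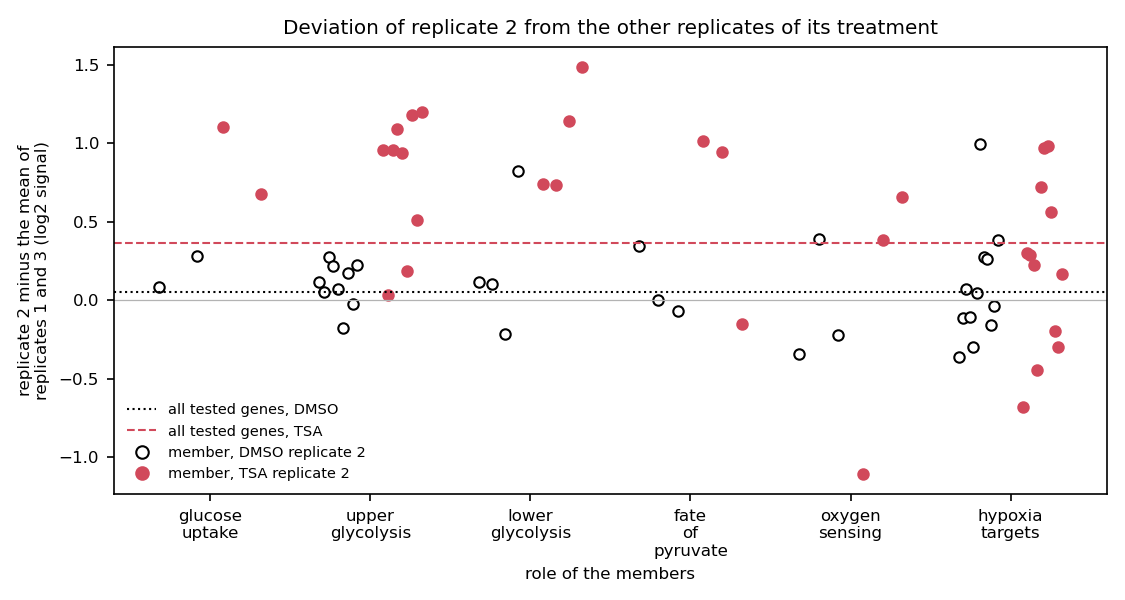
Level of replicate 2 minus the mean of replicates 1 and 3 of its treatment (log2 signal, vertical axis) for the 33 members by role. Open points are DMSO, filled points are TSA, and the lines give the median over all tested genes (0.06 for DMSO and 0.37 for TSA). The median of the filled points is 0.95 in upper and 0.94 in lower glycolysis, while Hif1a, Vegfa and Bnip3 lie below 0 (-1.11, -0.68 and -0.44).

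The hypoxia targets had medians of -0.36, 0.11 and -0.44 on slides 1, 2 and 3, with the same signs as glycolysis. Relative to all tested genes (-0.03, 0.30 and 0.03) they were lower on all 3 slides, whereas glycolysis was level on slide 2. Of the targets, 5 of 12 were highest on TSA replicate 2, against 10 of 13 glycolytic enzymes. The difference between these groups was not tested. The direction of the median over all 33 members turned when TSA replicate 1 was left out (0.08), and it was -0.37 without TSA replicate 2 and -0.35 without both arrays of slide 2. Vegfa, Bnip3, Kdm3a, Hk2, Hk1, Pfkp and Mxi1 stood at -1.02, -1.02, -0.55, -0.41, 0.73, 0.91 and 0.73 without slide 2. Their groups did not overlap, so leaving out a slide could not change their direction.

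Member calls appeared under 3 of the other fits. They used array weights, array weights with the slide as a block, or the block without slide 2. Leaving out slide 2 without the block, or TSA replicate 2 alone, called 0 members (limma). In those 2 fits 11 and 13 of 33 members had an unadjusted p under 0.05, as had 3009 and 2944 of 14527 genes. With the slide as a block, 3.19% of all tested genes rose and 0.145% fell, and no member passed (limma; 9 of 33 had an unadjusted p under 0.05, as had 3331 of 14527 genes). With array weights estimated by limma, TSA replicate 2 had a weight of 0.10 against 1.15 to 2.42 for the other arrays, 6.62% of genes rose and 1.17% fell, and Pfkp alone of the members rose (0.98, adjusted p = 0.0482). With array weights and the block, 17.2% of genes rose and 6.89% fell. In that fit 4 members rose, Hk1, Mxi1, Pdk1 and Pfkp, and 9 fell, Aldoc, Bnip3, Ero1a, Gpi1, Higd1a, Hk2, Kdm3a, Pfkl and Vegfa, which is 12.1% and 27.3% of the members. Vegfa then stood at -1.01 (adjusted p = 0.00225) and Bnip3 at -0.92 (adjusted p = 0.00652). With slide 2 left out and the block kept, a fit added after the values were seen, 10.9% of genes rose and 2.53% fell. Hk1 and Mxi1 rose there, and Aldoc, Bnip3 and Vegfa fell (Vegfa -1.02, adjusted p = 0.0218). Over 20 fits the adjusted p ranged from 0.00225 to 0.659 for Vegfa, from 0.00652 to 0.638 for Bnip3 and from 0.0225 to 0.554 for Pfkp (limma). The weights, and the choice of slide to leave out, came from the same arrays as the differences.

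Neighbouring pathways also had no call in the main fit, with treatment as the only term. The lists for them were chosen by function, with earlier results of these data known. Of 29 tested further genes of glucose metabolism, 0 rose or fell and 4, Hk3 among them, had an unadjusted p under 0.05 (limma). The median was 0.25. Those with the smallest p were Fbp2 and Fbp1, fructose bisphosphatases of gluconeogenesis (1.69 ± 0.36 and 1.34 ± 0.44, adjusted p = 0.0993 and 0.278 with limma), and Hk3, a hexokinase. Hk3 was above background on the 3 TSA arrays and on no DMSO array. It was at least 1.92-fold higher in TSA, taking as its DMSO level the lowest signal called above background on each array or its own where higher. It passed the filter on dim probes only through the TSA arrays, so its p-values are not given as support. The count of 4 and the median of 0.25 include Hk3 and give it no support either. With the slide as a block Hk3 was the 1 call of this list, under the same limit. Of 32 tested further hypoxia genes, 0 rose or fell and 2 had an unadjusted p under 0.05 (limma), 22 had a lower mean in TSA, and the median was -0.09. Gbe1, the glycogen branching enzyme, gave -1.07 ± 0.21 (adjusted p = 0.0821 with limma), Stc2, a secreted stanniocalcin, -1.05 ± 0.35, and Tfrc, the transferrin receptor, -0.70 ± 0.30. The TSA arrays of all 3 lay below the DMSO arrays.

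The pentose phosphate list had 6 tested genes, with a median of -0.09, 0 calls and 0 at an unadjusted p under 0.05 (limma). Its smallest p belonged to Taldo1, a transaldolase (0.58 ± 0.31), followed by Rpe (-0.74 ± 0.69) and G6pdx, the entry enzyme (-0.15 ± 0.24). Pyruvate oxidation and the TCA cycle had 22 tested genes, 0 calls, 2 at an unadjusted p under 0.05 (limma) and a median of 0.04. Mpc1, a subunit of the mitochondrial pyruvate carrier, gave 0.79 ± 0.19 (adjusted p = 0.146 with limma), and Sucla2 and Suclg2, subunits of succinyl-CoA ligase, gave -0.70 ± 0.29 and -0.47 ± 0.23. Mpc1 was higher in TSA on all 3 slides, and both ligase subunits were lower on all 3. Suclg1, the ligase's other subunit, was named after its values were seen: it was higher on all 3 slides, without overlap (0.40 ± 0.24).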

How the data were processed

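Per the file headers, each deposited scanner file lists intensity per spot, background-subtracted and detrended within the array by Feature Extraction, whose version the submitters' processing notes give as 10.7. The authors also deposited a table of log2 values whose normalization is not given in the sources used here; it served as an alternative. After removal of control and outlier spots, each log2 processed signal was set relative to the 75th percentile on its array, and spots of a probe were averaged. Probes above background on at least 3 of 6 arrays (28160 of 41174) were tested with limma 3.58.1 in R 4.3.3, with treatment as the only term, and Benjamini-Hochberg adjustment over them. All 33 members passed that filter on all 6 arrays. Of several tested probes, the brightest on average stood for the gene, and 13695 probes had no named gene. The rule for named genes takes all members and the 3 genes with the smallest adjusted p of each further list. The members and lists were chosen with earlier results of these data known.

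The replicate number is also the slide. Deviations from the group means correlated at 0.484, 0.614 and 0.585 within slides and at -0.568 to 0.0916 between slides, so the numbers pair the samples. Samples came from experiments that the series text calls independent, and 3 arrays a group limit the precision. Alternatives were other scalings, filters and moderation, the block, array weights and leaving out arrays. Python 3.11.15 was used for figures.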

Additional observations from a re-analysis of the deposited data

How the results depend on the processing

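Over all genes, 197 rose and 8 fell. With the replicate block (paired by slide) these counts were 464 and 21, with array weights 962 and 170, with array weights and the block 2496 and 1001, and with slide 2 left out and the block kept, added after seeing the data, 1587 and 368. Rises numbered 105 with normexp and quantile normalization, 115 with quantile normalization, 102 with median centring (5 falls), 114 with the authors' table and 40 with no filter (0 falls). Without slide 2 and without a block there were 0 rises and 0 falls (limma, with 3009 genes at an unadjusted p under 0.05). Leaving out single arrays gave 0 to 431 rises and 0 to 29 falls, and calls came only without TSA replicate 2; the other 5 left 1376 to 2049 genes at an unadjusted p under 0.05. Members called were 1 rise with array weights, 4 rises and 9 falls with array weights and the block, and 2 rises and 3 falls without slide 2 with the block; every other fit called 0. The median of the members was 0.29 on slide 2 alone and -0.42 and -0.27 on slides 1 and 3. Under the 4 other scalings 29 members kept their direction, and Pfkm, Aldoa, Ldha and Adm changed it in at least 1. The cause of these changes was not tested.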
